A study of Homo sapiens with 17 samples.

Results

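The regions described here were bound by FOXA1 in parental A549 cells, lay where neither H3K9me3 nor H3K27me3 was called in both its libraries and over 1 kb from the ends of protein-coding genes, and had no FOXA1 peak in any library of the A-Fos line. A549 is an established human lung carcinoma line. The A-Fos line carried A-Fos, a dominant-negative Fos protein induced by doxycycline, integrated with piggyBac, and the labels do not say whether it was a clone or a pool. FOXA1 was profiled with ChIP-seq (sequencing of immunoprecipitated chromatin) in the A-Fos line with doxycycline (1 µg/mL for 48 h), in the same line without doxycycline, and in untreated parental (WT) cells, with 2 libraries per group. FOSL2 was profiled in the A-Fos line with and without doxycycline, and the histone marks H3K9me3 and H3K27me3 in WT cells, also with 2 libraries each. No FOSL2 library of WT cells, and no library of doxycycline-treated cells without A-Fos, was analysed here. Cell line and doxycycline are therefore both different between the 2 doxycycline libraries and WT cells, and their parts cannot be told apart there.

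The members were chosen by the FOXA1 and mark peaks themselves. The 2 WT lists held 49448 and 80318 FOXA1 peaks on chromosomes 1 to 22 and X, which merged into 92627 regions, of which 35739 were called in both libraries (12321 in library 1 only and 44567 in library 2 only). No peak of the 4 A-Fos FOXA1 lists touched 19854 of them. Removing 1026 regions covered by H3K9me3 (414) or H3K27me3 (678) in both libraries left 18828, and removing 1854 within 1 kb of either end of a protein-coding gene left 16974 members, or 47.5% of all regions called in both WT libraries. The comparison set consisted of 14552 regions that met the same conditions on marks and gene ends but had a peak in at least 1 A-Fos FOXA1 list, called shared regions below. Of these, 5789 were in exactly 1 of the A-Fos lists, 3819 in 2, 2016 in 3 and 2928 in all 4.

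FOXA1 is a forkhead pioneer factor: it can bind its motif on nucleosomal DNA and is known for opening enhancers in lung, liver and other endoderm-derived epithelium. AP-1 factors are dimers of Jun with Fos proteins, FOSL2 (also called Fra2) among them, and bind the motifs TGACTCA and TGAGTCA. A-Fos pairs with Jun proteins into dimers that do not bind DNA. H3K9me3 and H3K27me3 mark heterochromatin and Polycomb-repressed chromatin.

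No genome sequence was used here, so sequence can be shown only where a member lay over an annotated start. The RefSeq table (GRCh38.p14) holds 300-base windows from 250 bases before to 50 bases after transcript starts, and 323 members overlapped such a window. These were starts of lncRNA genes, or starts inside the interval of a protein-coding gene. Below are windows that held the summit of a member, with the forkhead motif TGTTTAC (or its reverse complement) and the AP-1 motifs TGACTCA and TGAGTCA in capitals. ELN-AS1 (chr7:74062231-74062530, minus strand) and SLC16A3 (chr17:82231982-82232281, plus strand) belonged to the strongest such members by parental FOXA1 enrichment. LINC00261 (chr20:22578593-22578892, minus strand), a lncRNA gene beside FOXA2, and LINC00887 (chr3:194312755-194313054, minus strand) were among the strongest with a forkhead motif. LOC124904733 (chr19:47729462-47729761, minus strand), MSANTD3 (chr9:100429364-100429663, plus strand) and MAN1C1 (chr1:25695905-25696204, plus strand) were the strongest that also carried FOSL2. All were taken from chromosomes other than 8.
ELN-AS1: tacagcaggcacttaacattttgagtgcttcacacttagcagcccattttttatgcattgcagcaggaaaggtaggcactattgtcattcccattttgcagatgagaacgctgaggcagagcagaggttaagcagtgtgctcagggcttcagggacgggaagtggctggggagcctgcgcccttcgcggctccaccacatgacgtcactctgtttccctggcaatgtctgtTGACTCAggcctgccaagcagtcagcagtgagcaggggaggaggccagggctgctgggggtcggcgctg
SLC16A3: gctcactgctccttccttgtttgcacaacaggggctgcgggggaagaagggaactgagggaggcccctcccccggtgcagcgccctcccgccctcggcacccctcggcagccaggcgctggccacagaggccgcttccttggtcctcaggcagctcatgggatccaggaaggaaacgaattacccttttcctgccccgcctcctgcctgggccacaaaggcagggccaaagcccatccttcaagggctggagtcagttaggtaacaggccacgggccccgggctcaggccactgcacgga
LINC00261: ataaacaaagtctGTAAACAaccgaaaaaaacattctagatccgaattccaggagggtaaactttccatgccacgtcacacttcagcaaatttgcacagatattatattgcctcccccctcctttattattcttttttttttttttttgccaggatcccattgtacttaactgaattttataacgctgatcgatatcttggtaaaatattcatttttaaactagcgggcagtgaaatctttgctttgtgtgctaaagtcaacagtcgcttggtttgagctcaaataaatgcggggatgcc
LINC00887: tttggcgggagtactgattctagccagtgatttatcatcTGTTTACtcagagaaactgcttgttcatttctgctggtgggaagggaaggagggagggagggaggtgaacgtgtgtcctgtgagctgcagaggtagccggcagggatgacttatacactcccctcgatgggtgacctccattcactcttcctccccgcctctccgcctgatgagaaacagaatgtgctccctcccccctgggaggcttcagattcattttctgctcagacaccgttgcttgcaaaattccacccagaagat
LOC124904733: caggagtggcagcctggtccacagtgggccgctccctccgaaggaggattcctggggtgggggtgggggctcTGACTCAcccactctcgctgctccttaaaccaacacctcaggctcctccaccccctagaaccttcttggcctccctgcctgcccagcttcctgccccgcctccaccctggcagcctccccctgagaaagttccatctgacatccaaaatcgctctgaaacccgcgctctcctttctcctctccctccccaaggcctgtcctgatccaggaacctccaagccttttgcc
MSANTD3: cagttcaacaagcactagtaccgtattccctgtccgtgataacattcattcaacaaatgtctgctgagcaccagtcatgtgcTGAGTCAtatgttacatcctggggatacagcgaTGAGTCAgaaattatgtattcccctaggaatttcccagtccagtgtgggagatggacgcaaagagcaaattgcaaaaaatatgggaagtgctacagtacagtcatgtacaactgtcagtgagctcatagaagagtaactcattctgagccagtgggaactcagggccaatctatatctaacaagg
MAN1C1: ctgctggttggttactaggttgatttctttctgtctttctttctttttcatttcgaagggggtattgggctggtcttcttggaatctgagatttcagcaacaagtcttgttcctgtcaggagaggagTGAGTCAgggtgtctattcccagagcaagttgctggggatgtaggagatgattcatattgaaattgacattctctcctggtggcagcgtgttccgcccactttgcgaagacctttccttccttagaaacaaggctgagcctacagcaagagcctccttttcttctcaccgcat

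The windows of LINC00261 and LINC00887 each held 1 forkhead match and no AP-1 match, and the 3 windows with FOSL2 each held an AP-1 match and no forkhead match. The window of ELN-AS1 held an AP-1 match only, and that of SLC16A3 held neither. A match describes these letters in the window and does not show a bound site.

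Members were the weaker FOXA1 regions of WT cells. Enrichment here is the authors' own fold enrichment of a peak over background, and it was part of the same contrast that chose the members, so the values are a description without a test. Members had a median fold enrichment of 5.07 in WT library 1 and 6.84 in WT library 2, while shared regions had 10.1 and 19.6. The middle of the members, between the quartiles, ran from 4.27 to 6.46 in library 1 and from 4.99 to 10.3 in library 2. Members were also narrower, with a median width of 422 bp against 684 bp in shared regions. The summits of the 2 WT libraries lay 18 bp apart at the median in members and 8 bp apart in shared regions. The log2 fold enrichments of the 2 WT libraries had a correlation across regions of r = 0.620 in 16974 members and r = 0.885 in 14552 shared regions. Regions within a library share its depth and background, and these correlations carry no p. Library 2 gave the higher fold enrichment at 76.8% of members and at 92.5% of shared regions.

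To set regions of like strength side by side, each region received the mean of its percentile ranks in the 2 WT lists. The median of this mean percentile was 54.7 in members and 84.4 in shared regions. The 31526 unmarked distal regions (members and shared regions together) were then read in deciles of all parental regions. Members made up 90.9% of the regions in the lowest decile, 68.5% in the fifth, 26.3% in the eighth, 10.1% in the ninth, and 1.00% (32 of 3199) in the highest. Weak members had a median fold enrichment of 3.74 in library 1 and 3.92 in library 2 in the lowest decile, and the 32 in the highest decile had 22.6 and 51.2.

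**Figure D1:**
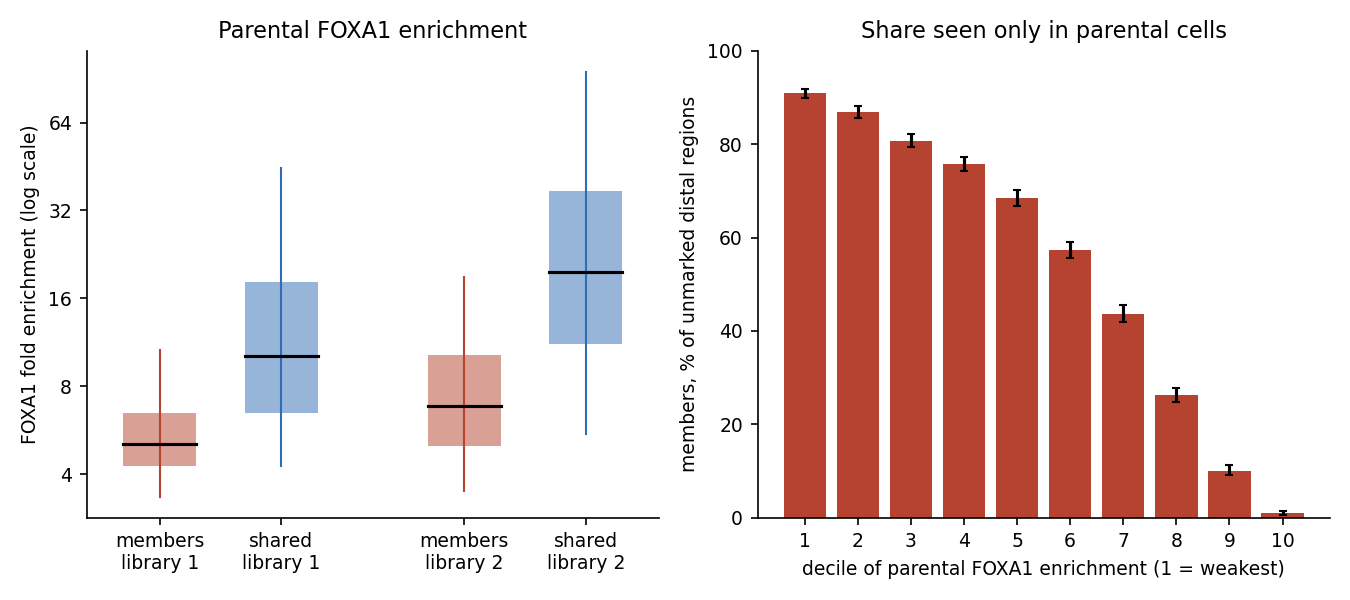
Left, fold enrichment of FOXA1 peaks in the 2 WT libraries (log axis) for members and shared regions, with the median as a line, quartiles as a box and the range from the 5th to the 95th percentile as whiskers. Right, members as a percentage of unmarked distal regions in each decile of parental enrichment with 95% exact intervals, running down from 90.9% in decile 1 to 1.00% in decile 10.

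The number of members depended on the length of the lists. The A-Fos FOXA1 lists were far shorter than the WT lists, with 11112 and 15065 peaks with doxycycline and 7633 and 13247 without it. With every FOXA1 list limited to its 7633 strongest peaks, 429 of 5440 unmarked distal regions (7.89%) were members, against 16974 of 31526 (53.8%) with the lists as deposited. Taking members from WT library 2 alone gave 51795 and from WT library 1 alone 27403. Every list reached down to a q of 0.05, so a member is a region with no A-Fos peak past that threshold, which does not show that FOXA1 was absent.

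The rule removed every region that touched an A-Fos FOXA1 peak, so the distances from members to such peaks are a description. No distances of other regions stand beside them. Of 16974 members, 24 had such a peak within 200 bp, 753 (4.44%) within 1 kb, 5191 (30.6%) within 10 kb and 14365 (84.6%) within 100 kb. The nearest was a member whose nearest gene was SOX9 (chr17:72003952-72004577), which abutted an A-Fos peak without sharing a base; its fold enrichments were 3.61 and 4.36 in the 2 WT libraries. The next had gaps of 9 bp (nearest gene OR4K1) and 20 bp (nearest gene LMNTD1). At the limit for gene ends, members 1001, 1001 and 1002 bp from an end of NFE2L2, NRARP and ETV6 were just inside, with fold enrichments of 6.68 and 16.4, of 5.07 and 10.0, and of 3.02 and 5.39. Regions 999, 999 and 998 bp from an end of GNPTAB, PIWIL2 and ZSWIM6 were just outside, with 6.68 and 7.75, 5.61 and 5.70, and 9.61 and 10.7.

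The rule removed a region only where both libraries of a mark covered the same base, so single-library coverage remained. H3K9me3 covered 202 members (1.19%) in library 1 and 283 (1.67%) in library 2, and H3K27me3 covered 158 (0.931%) and 388 (2.29%). In shared regions these shares were 1.31% and 1.88% for H3K9me3 and 0.687% and 2.11% for H3K27me3. H3K9me3 called in both libraries lay within 10 kb of 41.3% of members (95% exact interval 40.6 to 42.0%) and 46.4% of shared regions (45.5 to 47.2%). For H3K27me3 these shares were 19.98% of members (19.4 to 20.6%) and 17.3% of shared regions (16.7 to 17.9%). Members thus had H3K9me3 nearby less often and H3K27me3 nearby more often than shared regions. The median distance to H3K27me3 was 64861 bp in members and 78462 bp in shared regions. These values are a description without a test: the mark lists were part of the rule, and neighbouring regions are not independent. The shares were also not compared at equal parental strength.

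FOSL2 binding was not part of the rule. A region was counted as carrying FOSL2 where 1 bp or more lay in a FOSL2 region found by both libraries of the A-Fos line without doxycycline. This held for 1778 members (10.5%, 95% exact interval 10.0 to 10.9%) and 2781 shared regions (19.1%, 18.5 to 19.8%), against 13.5% of all 35739 parental regions. The 2928 shared regions found in all 4 A-Fos FOXA1 lists carried FOSL2 in 22.4% of cases. The odds ratio of members to shared regions was 0.495 (95% interval 0.464 to 0.528). Intervals over regions cover counting error alone, and neighbouring regions are not independent.

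Much of this difference went with the strength and width of the parental FOXA1 region. Within deciles of parental enrichment, combined by the Mantel-Haenszel method, the odds ratio was 0.845 (0.777 to 0.920). Within deciles and quintiles of region width together, an alternative added after the data were seen, it was 1.01 (0.928 to 1.11). In the third decile FOSL2 was found at 9.93% of members and at 10.6% of shared regions. In the second decile the members had the larger share, with 9.48% of members (8.41 to 10.6%) and 6.10% of shared regions (3.98 to 8.87%). At the top the order was the other way: in the ninth decile 11.8% of members (8.46 to 15.8%) and 21.3% of shared regions (19.8 to 22.9%) carried FOSL2, and in the tenth 12.5% of members (4 of 32) and 29.9% of shared regions.

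**Figure D2:**
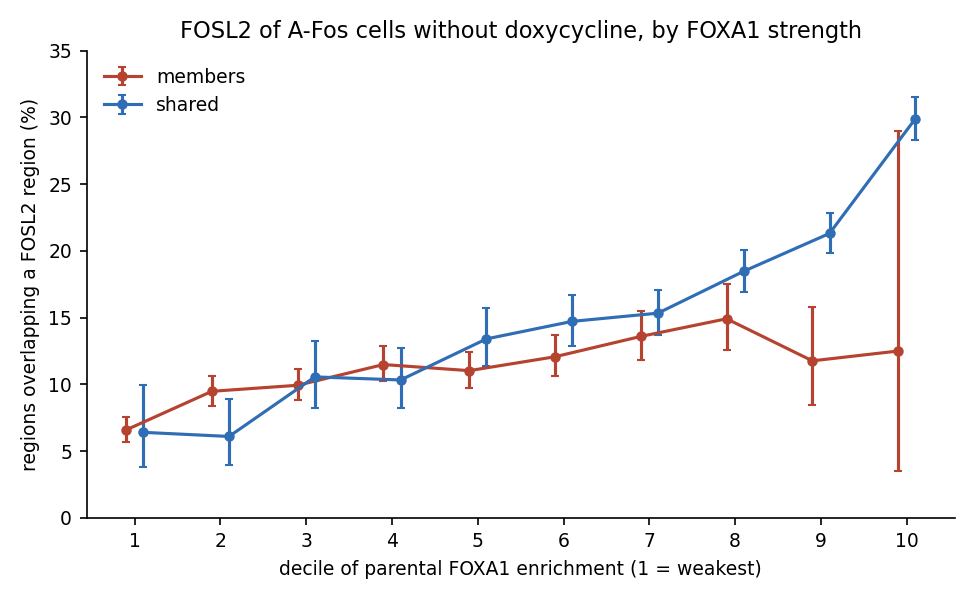
Percentage of members and of shared regions that overlapped a FOSL2 region of the A-Fos line without doxycycline, by decile of parental FOXA1 enrichment, with 95% exact intervals. The shares were 6.59% of members and 6.41% of shared regions in decile 1, and 11.8% of members and 21.3% of shared regions in decile 9.

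The direction also depended on which A-Fos lists defined absence. Where regions had only to be free of peaks in the 2 doxycycline FOXA1 lists, 15.2% of 22259 members and 12.7% of the regions then shared carried FOSL2, an odds ratio of 1.23 (1.15 to 1.33). Where they had only to be free of peaks in the 2 lists without doxycycline, the shares were 9.28% of 19985 members and 23.4% of shared regions, an odds ratio of 0.334 (0.313 to 0.356). The FOSL2 calls came from cells grown without doxycycline, as did the FOXA1 lists of the second setting.

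The 2 FOSL2 libraries without doxycycline differed in length, with 45586 and 14842 peaks. FOSL2 peaks were present at 4829 members (28.4%) in library 1 and at 1734 (10.2%) in library 2, against 33.4% and 13.4% of all parental regions. Shared regions had 6333 (43.5%) and 2789 (19.2%). The odds ratio of members to shared regions was 0.516 with library 1 alone and 0.480 with library 2 alone, and within deciles 0.996 (0.937 to 1.06) and 0.818 (0.752 to 0.891). At equal strength the interval thus held 1 with library 1 and did not with library 2, and the difference between the libraries was not tested. FOSL2 peaks inside members ranked high in their own lists, with median percentiles of 68.6 and 67.7 in the 2 libraries, against 71.2 and 71.6 for those in shared regions. FOSL2 and FOXA1 summits lay 83 and 71 bp apart at the median in members and 80 and 79 bp apart in shared regions, and 35.3% and 38.1% of the pairs in members lay within 50 bp.

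With A-Fos induced, FOSL2 peaks were nearly gone from members. They were found at 10 and 23 members in the 2 doxycycline libraries, against 4829 and 1734 in the 2 libraries without doxycycline. Both doxycycline libraries were below both libraries without it, and no member had a peak in both doxycycline lists. Of all parental regions, 0.143% and 0.252% had a FOSL2 peak in the doxycycline libraries, and of members 0.0589% and 0.136%. The mean was 16.5 ± 9.19 members with doxycycline and 3282 ± 2189 without it (SD, n = 2 libraries each), a ratio of 0.00503, and the two-sided exact permutation test gave p = 0.333, the smallest that 2 against 2 libraries allow. The ratio was 0.0106 in shared regions and 0.118 over the whole lists. Leaving out each FOSL2 library in turn gave ratios in members between 0.00305 and 0.00952. Only 6 members in library 1 and 8 in library 2 had a FOSL2 peak both with and without doxycycline in libraries of the same number.

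**Figure D3:**
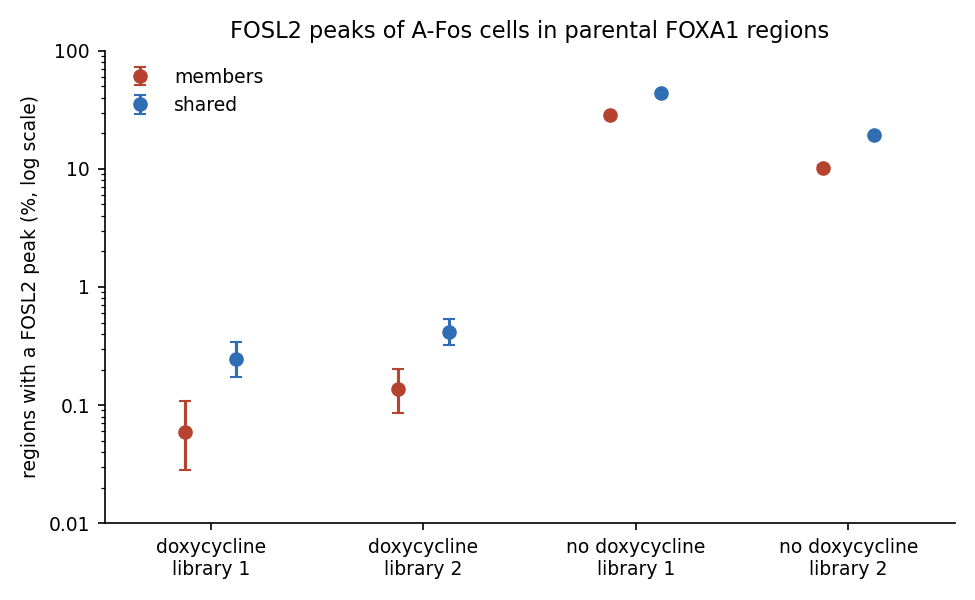
Percentage of members and of shared regions with a FOSL2 peak in each library of the A-Fos line (log axis) with 95% exact intervals. Members had 0.0589% and 0.136% with doxycycline and 28.4% and 10.2% without it.

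Members with FOSL2 differed from members without it in width more than in enrichment. The 1778 members with FOSL2 had median fold enrichments of FOXA1 of 5.07 and 8.81 in the 2 WT libraries and a median width of 578 bp, and the 12120 members with no peak in any FOSL2 list had 5.07 and 6.32 and 387 bp. Inside protein-coding genes lay 48.7% of the members with FOSL2 and 52.9% of those without a FOSL2 peak.

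The 12 strongest members with FOSL2 spanned a range of FOSL2 levels. They were taken by mean percentile in the WT lists, so their FOXA1 values are high by choice. The region inside LLGL2, which encodes an epithelial polarity protein (chr17:75557016-75558182), had FOXA1 fold enrichments of 24.8 and 52.4 in the 2 WT libraries and FOSL2 fold enrichments of 12.8 and 3.80 in the 2 libraries without doxycycline. The region inside AHNAK2, which encodes a large scaffold protein (chr14:104971932-104974145), had 22.97 and 52.7 for FOXA1 and 10.6 and 3.29 for FOSL2. At both regions FOSL2 ranked above the median of its list in library 1 and below it in library 2. The same held at the regions of FIBCD1, ZMIZ1, DENND3 and ZNF469, with FOSL2 fold enrichments of 2.95 to 3.91 in library 2. At the remaining regions of the 12 FOSL2 ranked above the median in both libraries. Near KRT7, a keratin gene of simple epithelia (chr12:52215461-52216346), FOXA1 had 18.2 and 33.8 and FOSL2 had 18.1 and 5.95. The region nearest MACROH2A1, a histone variant gene (chr5:135246662-135248056), lay 86.3 kb from it, with 14.96 and 40.3 for FOXA1 and 23.1 and 9.97 for FOSL2. Further regions had FIBCD1, ZMIZ1, SV2C, TWIST2, ABHD12, DENND3 and ZNF469 as nearest genes. Over all 12, FOXA1 fold enrichment ran from 14.96 to 24.8 in WT library 1 and from 29.2 to 58.6 in WT library 2, 7 lay inside a gene, and none overlapped a start window.

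The 12 strongest members with no FOSL2 peak in any list had FOXA1 fold enrichments of 17.4 to 37.8 in WT library 1 and 28.6 to 67.0 in WT library 2. The highest mean percentile of any of these belonged to a region inside GATA3, a zinc finger transcription factor gene (chr10:8050353-8051148), with fold enrichments of 30.4 and 54.9. It overlapped a start window and lay 61751 bp from the nearest A-Fos FOXA1 peak. The region inside SNX6, a sorting nexin gene (chr14:34604868-34605688), had 37.8 and 38.0, and the region inside NHERF2, which encodes a scaffold of the apical membrane (chr16:2035372-2036285), had 23.8 and 67.0. Matrix genes were among them: regions inside ELN (elastin; 25.6 and 51.7), LTBP4 (which binds latent TGF-beta; 21.3 and 55.4) and LAMA5 (a laminin chain; 21.9 and 48.1). So were the retinoid receptor genes RARA (21.6 and 50.0) and RXRA (19.5 and 40.8). A region 2.73 kb from MUC5B, an airway mucin gene (chr11:1219699-1220338), had 17.4 and 59.3. The remaining nearest genes were ITPRID1, DMRTA1 and RAB11FIP4. Of the 12, 9 lay inside a gene, against 51.7% of all members. Members with a FOSL2 peak in some list, but no FOSL2 region of both libraries, belonged to neither set of 12. Over all members the highest fold enrichments were 187 in WT library 1 and 80.2 in WT library 2, and the highest mean percentile was 98.0. Each of these lay above every region of the 2 sets.

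Of the factor genes FOXA1, FOXA2, FOSL2, FOS and JUN, all but JUN had a member within 50 kb. This is common: of all protein-coding genes, 51% had a member and 39.3% a shared region within 50 kb. FOXA1 had 1 member within 50 kb, 5.48 kb from the gene, with fold enrichments of 7.74 and 17.3, and 2 shared regions, the stronger with 66.5 and 154. FOXA2, a second forkhead pioneer gene, had a member 1.51 kb away with 12.8 and 25.8, the one that lies over the LINC00261 window printed above, and 2 shared regions. FOSL2 had 3 members within 50 kb and no shared region; 2 of them lay inside the gene, with 3.74 and 10.3 and with 5.88 and 6.61, and the third lay 49.9 kb away with 15.7 and 24.0. FOS had 2 members, at 11.6 and 19.2 kb, and no shared region. JUN had no member and 1 shared region 30.9 kb away, with 41.9 and 86.4. None of these regions carried FOSL2.

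Members lay inside protein-coding genes about as often as other parental regions. Inside such a gene lay 8784 members (51.7%, 51.0 to 52.5%) and 49.8% of shared regions (49.0 to 50.6%), against 51.7% of all parental regions. Exons and introns could not be told apart with the annotation used. LncRNA genes held a further 13.3% of members and 15.2% of shared regions. Members outside genes lay 54.1 kb from the nearest protein-coding gene at the median, and shared regions 60.9 kb. A member was inside 4328 of the 19974 protein-coding genes, and 353 genes held at least 5. PDE4D, a cyclic AMP phosphodiesterase gene 1553 kb long, held 30 members and 48 shared regions, the most members of any gene. IGF1R, the receptor gene for insulin-like growth factor, held 19 members in 316 kb beside 13 shared regions, and PDE4B, another phosphodiesterase gene, held 18 in 582 kb beside 6; these 3 genes were chosen after their values were seen. Of all members, 4621 (27.2%) had another within 10 kb.

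The share of members was highest on chromosomes 19, 17, 22 and 16. On chromosome 19, which has 24.8 protein-coding genes per Mb, 302 of 421 unmarked distal regions were members (71.7%, 67.2 to 76.0%). Chromosome 17 had 63.4% (60.8 to 66.0%), chromosome 22 had 62.1% (56.0 to 67.9%) and chromosome 16 had 59.4% (55.7 to 63.1%). Chromosome 11, with 9.63 genes per Mb, had 54.6%. At the other end, chromosome 4, with 4.05 genes per Mb, had 50.2% and chromosome 7 had 50.4%. Chromosomes 13 and 18 had the fewest genes per Mb (2.96 and 3.36), yet their shares were 54.7% and 55.7%. Had members on each chromosome followed the shares of their deciles of enrichment, chromosome 19 would have had 55.7%, chromosome 17 57.7%, chromosome 22 46.0% and chromosome 16 51.4%, each below the interval of the observed share. On chromosome 1 the share from deciles (53.1%) also lay just below the interval of the observed 55.2%. On chromosome 12 it lay above, with 59.5% from deciles against an observed 55.7% (53.7 to 57.7%), and likewise on chromosome 8, with 54.9% against 51.2% (48.9 to 53.5%), and by small margins on chromosomes 9 and 14. Across the 23 chromosomes the share of members had a Spearman correlation of 0.526 with genes per Mb, given as a description since all chromosomes come from the same libraries.

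**Figure D4:**
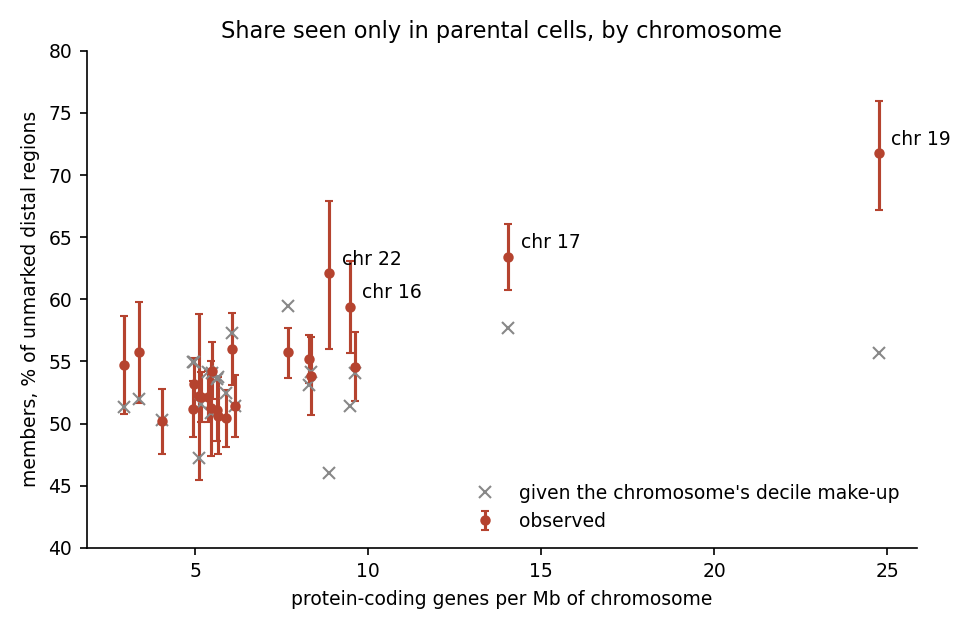
Members as a percentage of unmarked distal regions on each of the 23 chromosomes, against protein-coding genes per Mb; circles are observed shares with 95% exact intervals and crosses are the shares given by each chromosome's deciles of FOXA1 enrichment. Chromosome 19 had 71.7% observed and 55.7% from its deciles. The vertical axis does not start at 0.

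Start windows were overlapped by 323 members (1.90%, 1.70 to 2.12%) and 314 shared regions (2.16%, 1.93 to 2.41%), against 4.43% of all parental regions, which include those at gene ends. The odds ratio of members to shared regions was 0.880 (0.752 to 1.03). Within deciles of parental enrichment, it was 1.55 (1.26 to 1.90). The share among members was 1.03% in the lowest decile, 3.94% (2.73 to 5.49%) in the eighth and 5.26% (3.10 to 8.29%) in the ninth, and in shared regions 1.07%, 1.83% (1.33 to 2.46%) and 2.83% (2.25 to 3.499%). Members over a start window had median fold enrichments of 5.50 and 9.12, against 5.07 and 6.84 in the other members. They were also wider, with a median of 605 bp against 420 bp. FOSL2 was carried by 16.1% of them (12.3 to 20.6%), against 10.4% of the others. Shared regions had the same order, with FOSL2 at 32.8% (27.6 to 38.3%) over a start window and at 18.8% of the others.

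In 200 start windows a member had its summit (123 of lncRNA genes and 77 of protein-coding genes), and in 161 a shared region did. None of the 200 lay on chromosome 8. The forkhead motif was present in 39 of the 200 (19.5%, 14.2 to 25.7%) and in 36.0% of the 161 (28.6 to 44.0%), against 3.42% of all 34961 start windows. An AP-1 motif was present in 57 of the 200 (28.5%, 22.4 to 35.3%) and in 27.3% of the 161 (20.6 to 34.9%), against 4.92% of all start windows. Both strands were searched, and the forkhead and AP-1 motifs share no 7-base word. The windows at members had a median GC content of 51.2%, those at shared regions 44.3%, and all start windows 58.7%. Within deciles of parental enrichment the odds ratio of members to shared regions was 1.01 (0.530 to 1.92) for the forkhead motif, against 0.430 (0.267 to 0.692) without deciles, and 0.879 (0.466 to 1.66) for AP-1. At equal strength no difference in either motif was detectable with these windows.

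The AP-1 motif divided by FOSL2 in members and in shared regions, and the forkhead motif in members. Counted once per region, 29 of the 31 members that carried FOSL2 had an AP-1 motif in the window (93.5%, 78.6 to 99.2%) and 0 of 31 had the forkhead motif, which allows a share of up to 11.2%. Of the 154 other members, 25 had an AP-1 motif (16.2%, 10.8 to 23.02%) and 35 had the forkhead motif (22.7%, 16.4 to 30.2%). Among shared regions with FOSL2, 29 of 48 had an AP-1 motif (60.4%, 45.3 to 74.2%) and 13 of 48 had the forkhead motif (27.1%, 15.3 to 41.8%). Among the 104 other shared regions, 12.5% had an AP-1 motif (6.83 to 20.4%) and 39.4% had the forkhead motif (30.0 to 49.5%). In shared regions the intervals for the forkhead motif with and without FOSL2 overlapped. The intervals of members and shared regions with FOSL2 did not overlap for either motif; these counts were not repeated within deciles of strength, and the split was chosen after the data were seen.

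**Figure D5:**
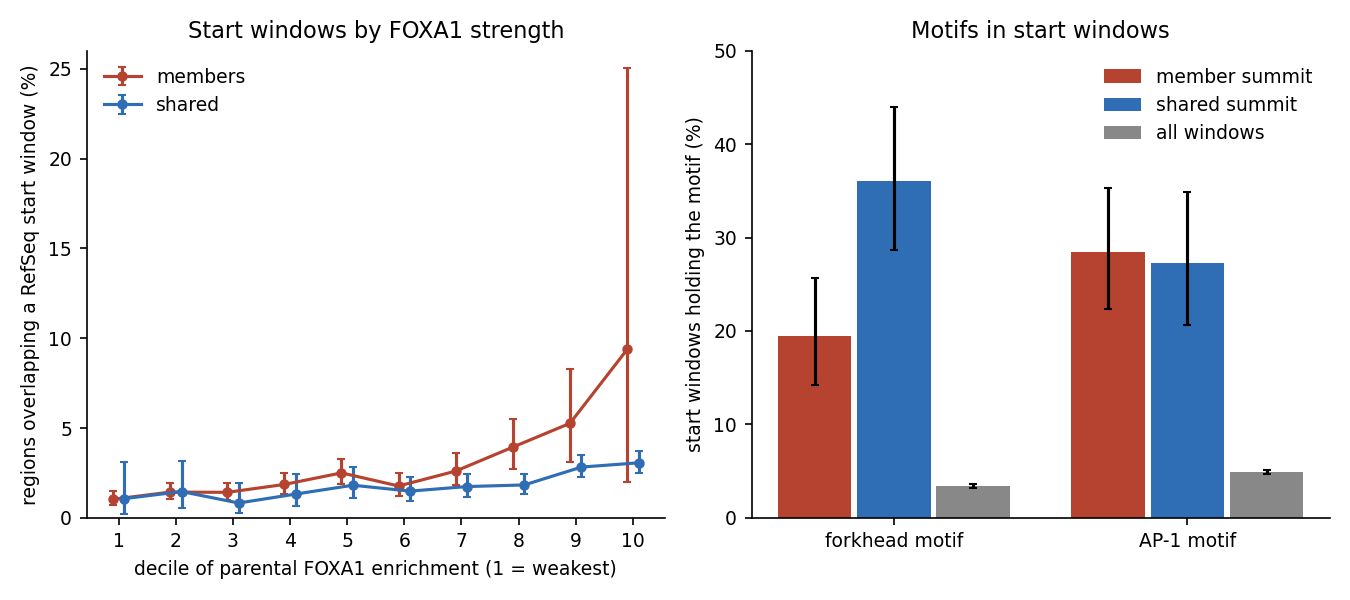
Left, percentage of members and of shared regions that overlapped a RefSeq start window, by decile of parental FOXA1 enrichment. Right, percentage of start windows that held the forkhead or an AP-1 motif, for windows with a member summit (19.5% and 28.5%), with a shared summit (36.0% and 27.3%) and for all windows (3.42% and 4.92%). Error bars are 95% exact intervals.

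Genes of 16 lists were asked for a member within 50 kb, which 51% of all 19974 protein-coding genes had, while 39.3% had a shared region within 50 kb. Within 10 kb these shares of all genes were 29.6% with a member and 21.9% with a shared region, and within 100 kb 66.3% and 54.3%. Most lists had larger shares with a member than all genes under each of the 3 windows. These were the matrix, chemokine, EGFR, glucocorticoid, TGF-beta, NRF2, AP-1, and FOXA and partner lists. The lung epithelial, liver and foregut, cell cycle, and fibroblast and endothelial lists did so too. Larger shares were thus not particular to a pathway, nor to members. Within 50 kb most lists also had a larger share with a shared region than all genes. It was 83.3% for matrix, 85% for chemokine and 70.6% for FOXA and partner genes. Only the housekeeping and the neuron and muscle lists had smaller shares with a shared region (28.6% each). For members, the mucin, housekeeping, blood, and neuron and muscle lists were not above all genes under every window. A member was near 23 of 24 matrix and adhesion genes, and a shared region near 20. FN1 (fibronectin) had a strongest member of 9.35 and 16.9, COL5A2 (a collagen chain) one of 8.55 and 17.8, and ITGA2 (an integrin chain) one of 7.74 and 16.4 that carried FOSL2. For chemokine and cytokine genes the counts were 19 of 20 with a member and 17 with a shared region within 50 kb. Within 10 kb they were 8 with a member and 11 with a shared region. The genes of strongest members were IL11, CXCL8, NFKBIA and CXCL1 (6.41 to 9.08 in WT library 1). Those members lay far from the genes, at 36.4, 49.98, 47.2 and 45.5 kb. For EGFR and MAPK genes they were 18 of 20 and 13. ERBB2, a receptor tyrosine kinase gene, had 12.02 and 27.2, and SPRED2, a Ras-MAPK inhibitor gene, had 12.1 and 17.9.

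Among 15 glucocorticoid response genes 13 had a member nearby and 12 a shared region. The member 6.09 kb from DUSP1, a MAP kinase phosphatase gene, had 11.2 and 24.4 and carried FOSL2, and NR3C1, the glucocorticoid receptor gene, had 6 members within 50 kb. Of 20 TGF-beta and BMP genes 15 had a member and 14 a shared region: SMAD3, a signal transducer gene, had 10 members, the strongest with 11.2 and 32.2 and with FOSL2, and SMAD6, an inhibitory SMAD gene, had 7 members and no shared region. Of 24 NRF2 target genes 18 had a member and 16 a shared region. HMOX1 (heme oxygenase) had a strongest member of 13.9 and 28.3, and FTH1 (ferritin heavy chain) one of 12.3 and 19.04. In the AP-1 family list the counts were 10 of 14 and 7: BATF2, MAFF and MAFG had strongest members of 13.1 and 25.8, 12.02 and 28.03, and 13.6 and 19.6, and those of BATF2 and MAFG carried FOSL2.

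Of 24 lung epithelial genes 17 had a member and 13 a shared region within 50 kb, and 9 and 5 within 10 kb. KRT7 had 12 members and 4 shared regions within 50 kb, the strongest member with 19.8 and 55.7 inside the gene. ELF3, an epithelial ETS factor gene, had 3 members, the strongest with 10.0 and 24.3 and FOSL2, and SCGB1A1, the secretoglobin gene of club cells, had 3, the strongest with 11.1 and 19.4. Among FOXA and partner lineage factor genes the counts were 11 of 17 with a member and 12 with a shared region. CEBPA, a leucine zipper factor gene, had 5 members and no shared region (strongest member 13.9 and 23.7), and TEAD1 had 8 members and 9 shared regions. Liver and foregut genes (11 of 17) and mucin and goblet genes (7 of 16) included CYP24A1 with 9 members, and MUC5AC and MUC5B, which share 1 strong member. A shared region was near 10 of the liver and foregut genes and 7 of the mucin and goblet genes. Cell cycle genes had a member at 9 of 15 and a shared region at 6, with 7 members at CDK6.

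Lists of genes typical of other cell types or used in all cells differed among themselves. A member lay within 50 kb of 10 of 14 fibroblast and endothelial genes, a share like that of the lung epithelial list, with a shared region near 8 of them. A member lay within 50 kb of 6 of 14 housekeeping genes, 6 of 14 neuron and muscle genes and 3 of 14 blood genes, and a shared region near 4, 4 and 6 of them, and within 100 kb 8 of the 14 blood genes had a member. GAPDH, a glycolysis gene, nevertheless had a member 10.6 kb away with 16.3 and 30.4, and CD14, a monocyte receptor gene, had one 38.2 kb away with 20.3 and 23.5. The lists are small, their genes differ in length and neighbours, and no test was made of them.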

How the data were processed

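ChIP-seq peak lists of A549 cells were analysed, 14 lists with 1 per library, while the 3 inputs had no list used here. Groups and replicate numbers came from the sample titles, which name biological replicates. Each list, as deposited by the authors, holds peak positions and summits, a fold enrichment (ratio) on a linear scale, and p-values and q-values as −log10. Per the submitters' processing notes, reads were handled with MACS2, deepTools, SAMtools 1.8, BWA 2.2.1, fastp 0.23.2 and DRAGEN on build hg38, in an order and with settings not given in the sources used here. Per the labels' protocols, paired reads of 50 bp were obtained, with the same target number for every sample, after fixation in 1% formaldehyde. The lists hold no read counts, so the depth behind each list could not be checked, and differences in list length may carry differences in depth.

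Peaks on chromosomes 1 to 22 and X were merged with at least 1 bp of overlap, and protein-coding gene intervals and start windows came from RefSeq GRCh38.p14 tables (start windows of 1 gene can overlap). Shares have 95% exact (Clopper-Pearson) intervals, odds ratios Woolf intervals, with Mantel-Haenszel estimates over strata (Python 3.11.15, scipy 1.17.1, statsmodels 0.14.6). FOSL2 peaks in members were compared between libraries with an exact permutation test. Named regions were the 12 members with and the 12 without FOSL2 of highest mean percentile, each nearest gene once, the 3 nearest either side of the 1 kb limit, up to 4 genes per list by their strongest member, and FOXA1, FOXA2, FOSL2, FOS and JUN; some of these genes are not reported here. The 3 members nearest an A-Fos peak were named outside this rule. Members, lists and tests were chosen with earlier results of these data known. Planned sequences and motif counts around all summits need a genome and were replaced by start windows. The interval functions were tested on simulated data.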

Additional observations from a re-analysis of the deposited data

How the results depend on the processing

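The lists of equal length gave 429 members, of which 19.3% carried FOSL2 against 27.2% of shared regions (odds ratio 0.641), with 55.0% inside genes and a median percentile of 31.6. Keeping peaks above the median enrichment of their list gave 10761 members, FOSL2 at 15.8% of shared regions, an odds ratio of 0.623 and 49.5% inside genes. With 200 bp around summits FOSL2 was at 8.0% of members and 14.6% of shared regions, and with FOSL2 within 1 kb at 12.9% and 21.4% (odds ratio 0.545). A mark in either library gave 52.5% of members inside genes, 5 kb from gene ends 50.5%, and no distance rule 53.8%, with FOSL2 at 9.86% of members. Without a peak in the lists without doxycycline alone, FOSL2 was at 9.28% of members and 23.4% of shared regions (odds ratio 0.334). Without a peak in the doxycycline lists alone it was at 15.2% and 12.7% (odds ratio 1.23, reversed), with 50.9% of members inside genes. Within deciles the odds ratio of FOSL2 was 0.845, within deciles and width 1.01, and that of start windows 1.55, where it had been 0.880; the last pair and the removal of regions within 1 kb of any start window, which left 16240 members, were added after the data were seen. The cause of these shifts was not tested.

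Leaving out 1 library at a time gave 16586 to 51795 members, FOSL2 at 6.91 to 28.4% of members and 17.3 to 43.5% of shared regions, odds ratios of 0.333 to 0.708, 49.1 to 53.2% of members inside genes and median percentiles of 37.6 to 58.8. The FOSL2 ratio with over without doxycycline in members was below 1 under all 26 settings, at 0.00524 with the replicate block (exact sign flips, smallest p 0.5). Overlap of 50% and all contigs kept every share and odds ratio within its interval. With windows of 10 kb, the count of all protein-coding genes with a member changed over 1.5 times, from 10192 to 5910. The lung (9), matrix (15), liver (7) and chemokine (8) lists also passed this limit, so the change was not particular to them. With 100 kb the mucin (12) and blood (8) lists passed it, while all genes (13245) did not. Other windows for motifs were not run. Lists hold calls past a threshold alone, so absence of a peak is limited by depth that the lists do not give.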

Other observations

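Members overlapped 6 miRNA hairpins of the RefSeq table, those of MIR12118, MIR2117, MIR3175, MIR3978, MIR591 and MIR7845. No count for shared or all parental regions is given beside this one, so it does not show a trait of members. The member over MIR7845, whose nearest protein-coding gene was KLF7, had FOXA1 fold enrichments of 17.6 and 19.8 in the 2 WT libraries, and the member over MIR3175, nearest CHD2, had 9.07 and 14.2. The member over MIR591, nearest SLC25A13, was weak in both, with 3.13 and 3.10. Between the 2 libraries the member over MIR12118, nearest STC2, differed most of the 6, with 4.27 and 16.9.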
